A study of Homo sapiens with 148 samples.

Results

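The islet and gut peptide hormones described here are 10 genes, INS, GCG, SST, PPY, GHRL, IAPP, PYY, NPY, CCK and GAST, chosen by name from the 49085 gene names in the deposited expression table. Their RNA was measured by RNA-seq in H9 human embryonic stem cells (hESCs) of wild-type genotype that were carried through a pancreatic differentiation protocol, a cell line that can form all tissues of the body. The groups were the undifferentiated hESCs, definitive endoderm (DE, day 4), primitive gut tube (PGT, day 7), pancreatic progenitors (PP, day 14), a stage labelled PH that the sources used here do not define and give no day for, and organoids labelled as β cells made in vitro (SC-β, day 35), and apart from the hESCs all shared the differentiation treatment. Each stage has 2 RNA-seq samples among the 148 samples of the series, and the deposited values are the authors' mean of the replicates of a stage in TPM (a level per transcript length, scaled to the same total in each stage). All of these cells came from 1 cell line, so no stage samples more than 1 genetic background. Because the columns hold means only, no replicate error and no read count behind a value can be given, no test was possible, and no difference below can be set against the spread between samples.

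Peptide hormones are made as longer precursors that are cut by prohormone convertases, trimmed, often amidated, and stored in dense-core granules until a stimulus releases them. In the adult islet, β cells make insulin (INS), α cells glucagon (GCG), δ cells somatostatin (SST), PP cells pancreatic polypeptide (PPY) and ε cells ghrelin (GHRL). Endocrine cells of the gut and stomach use several of the same genes along with peptide YY (PYY), cholecystokinin (CCK) and gastrin (GAST), and single endocrine cells of the fetal pancreas can carry more than one hormone.

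Promoter sequences are shown for the genes whose levels differed most between stages, so that the region in front of each can be read beside its values. They are the 250 bases before the RefSeq transcription start on GRCh38.p14, written 5′ to 3′ on the strand of the gene, from chr11:2161210-2161459 (reverse strand) for INS, chr3:187670395-187670644 (reverse) for SST, chr17:41712081-41712330 (forward) for GAST and chr7:24283940-24284189 (forward) for NPY. Capitals mark TATAAA (the TATA-type motif), TGACGTCA (the cyclic AMP response element), TAAT (the core read by homeodomain proteins) and CATCTG (a form of the E-box CANNTG), or the reverse complement of one of these.
INS: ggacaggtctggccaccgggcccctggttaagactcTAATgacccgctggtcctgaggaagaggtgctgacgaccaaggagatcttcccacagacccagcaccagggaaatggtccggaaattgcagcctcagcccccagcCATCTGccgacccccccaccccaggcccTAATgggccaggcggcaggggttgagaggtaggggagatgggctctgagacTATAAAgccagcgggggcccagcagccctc
SST: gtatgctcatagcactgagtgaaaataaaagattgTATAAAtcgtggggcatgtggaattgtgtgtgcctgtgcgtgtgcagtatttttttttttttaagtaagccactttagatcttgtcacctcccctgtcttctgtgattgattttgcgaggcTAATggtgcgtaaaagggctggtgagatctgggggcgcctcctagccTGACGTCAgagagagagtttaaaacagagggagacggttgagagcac
GAST: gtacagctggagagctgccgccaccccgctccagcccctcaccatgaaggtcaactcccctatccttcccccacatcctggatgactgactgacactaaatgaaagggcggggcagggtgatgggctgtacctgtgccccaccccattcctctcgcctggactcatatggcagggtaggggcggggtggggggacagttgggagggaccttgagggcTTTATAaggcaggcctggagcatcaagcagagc
NPY: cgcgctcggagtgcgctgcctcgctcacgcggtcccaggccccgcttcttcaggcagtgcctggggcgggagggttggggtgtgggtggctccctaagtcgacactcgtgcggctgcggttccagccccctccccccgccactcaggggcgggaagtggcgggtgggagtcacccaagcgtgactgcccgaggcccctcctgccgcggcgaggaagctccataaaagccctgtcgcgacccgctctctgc
The INS window held TATAAA 30 bases before the start, TAAT at 81 and 214 bases and CATCTG at 109 bases. The SST window was the single member window with TGACGTCA, 47 bases before the start. GAST held TATAAA on the other strand 33 bases before the start and neither TAAT nor CATCTG. The NPY window held none of these motifs and none of CANNTG, and at 71.6% GC it was richer in G and C than those of INS (64.0%), GAST (61.6%), SST (45.6%) and GCG (38.4%). The GCG window, chr2:162152248-162152497 (reverse), held TATAAA at 30 bases and, on the other strand, at 79 bases, TAAT at 64 and, on the other strand, at 98 bases, and CATCTG on the other strand at 90 and 147 bases. It is not printed because the first exon of another annotated GCG transcript covers much of it, whereas annotated exons of INS and NPY reach only into the last few bases of their windows.

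All 10 members matched RefSeq windows, 14 in all, since CCK, IAPP, PPY and PYY have 2 windows each. On both strands TATAAA was found in 7 of these 14 windows and in 10.7% of all 35116 windows, TGACGTCA in 1 of 14 and 1.65%, TAAT in 7 of 14 and 47.4%, CATCTG in 3 of 14 and 12.2%, and CANNTG, which includes every CATCTG, in 9 of 14 and 61.8%. The windows of PPY overlap, and the TATAAA 31 bases before 1 start is the same as that 233 bases before the other, so it is counted in both. The count takes matches anywhere in a window. In SST the match lay 215 bases before the start, and in 1 window of CCK the matches lay at 211 and, on the other strand, at 213 bases. A match describes letters in a window and does not show binding of a factor.

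**Figure D1:**
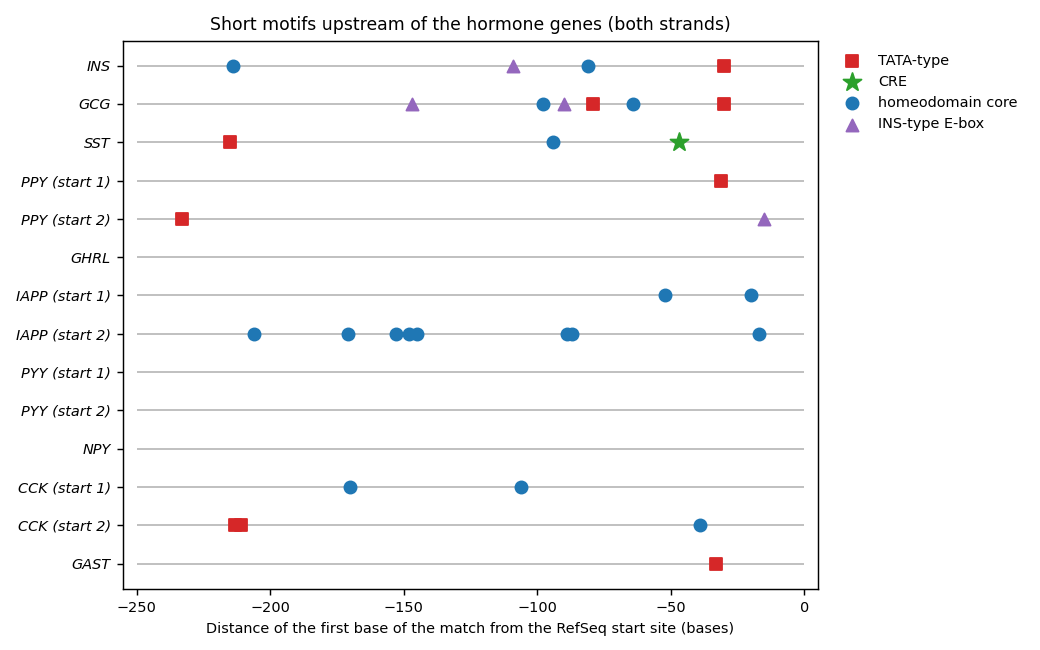
Each line is the window of 250 bases before 1 RefSeq start of a hormone gene, the x axis gives the distance in bases of a motif's first base from that start, and symbols mark the TATA-type, cyclic AMP response element (CRE), homeodomain core and INS-type E-box motifs on either strand. INS and GCG have a TATA-type match 30 bases before the start, SST alone has the cyclic AMP response element, and the lines of GHRL, NPY and PYY carry no mark.

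The hormone RNAs as a group were highest at the last stage. Their summed level was 4.60 TPM in hESCs, 4.48 in DE and 293 in PGT, then 109.7 in PP, 120.3 in PH and 3395 in SC-β, which is 0.000460%, 0.000448%, 0.0293%, 0.0110%, 0.0120% and 0.340% of all TPM. Structural RNAs took 39.0%, 31.8%, 36.9%, 42.2%, 50.9% and 33.9% of all TPM in the same order, so the part left to other genes differed between stages. The number of members at 1 TPM or more was 1, 2, 2, 7, 5 and 9 in the same order, and the most abundant member was PYY in hESCs and DE, NPY in PGT, SST in PP and PH and GCG in SC-β. In bulk RNA, fewer cells of a type and less RNA per cell cannot be told apart, so these levels say nothing of how many cells made a hormone.

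**Figure D2:**
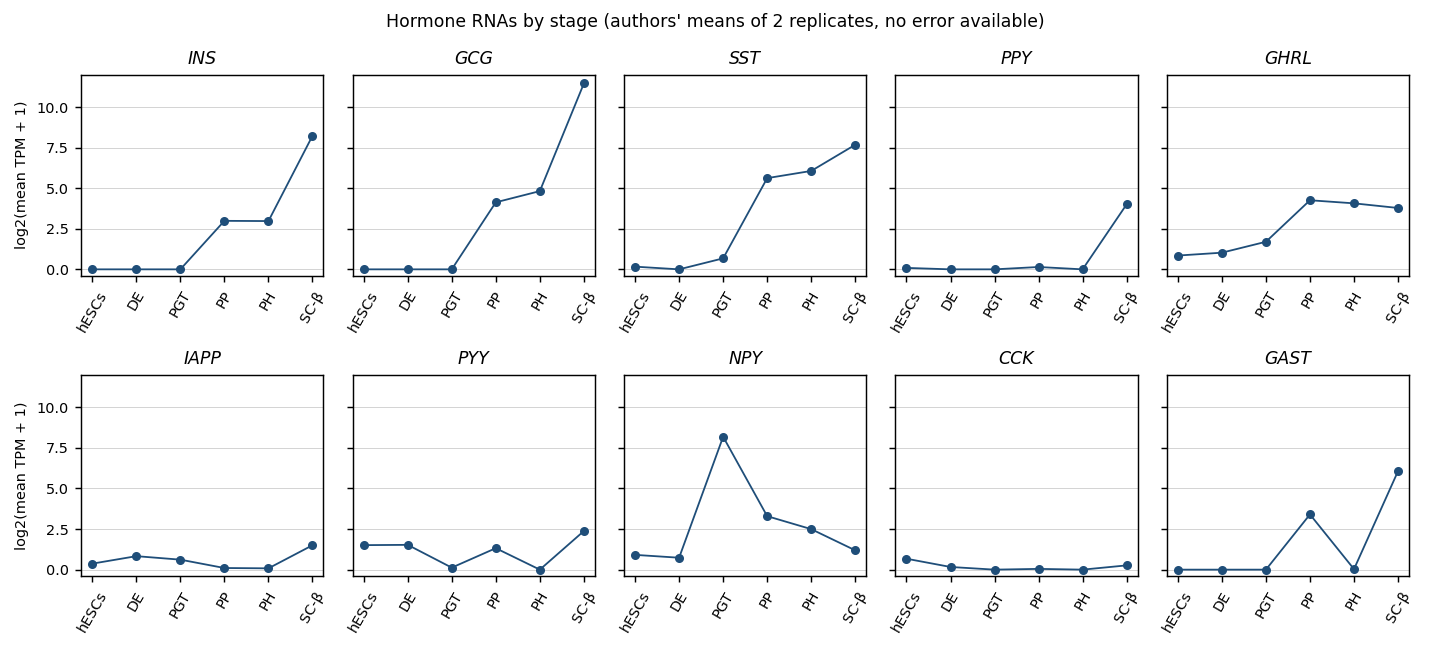
Each panel is 1 hormone gene, the x axis gives the 6 stages in the order of the deposited columns, and points are log2(mean TPM + 1) of the authors' mean per stage. INS, GCG, SST, PPY and GAST were highest in SC-β, NPY was highest in PGT at 290.02 TPM, and CCK stayed under 1 TPM at every stage.

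Insulin, the hormone that lowers blood glucose, was listed at 0 TPM in hESCs, DE and PGT, at 6.93 in PP, 6.86 in PH and 298 in SC-β. PP and PH were nearly level, and SC-β was 43.0-fold above PP, which placed INS 221st of all names in that stage. INS (ENSG00000254647.7) lies at chr11:2159779-2161221 on the reverse strand of GRCh38, with 3 exons and 465 bases in its canonical transcript in GENCODE 44. The read-through gene INS-IGF2 shares its strand and part of its sequence, and was at 0.0114 TPM in PP, 0.00843 in PH and 0.161 in SC-β, low beside INS in each of these stages.

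Glucagon, which raises blood glucose and whose precursor also carries the incretin GLP-1, had the highest level of any member in any stage. GCG was listed at 0 TPM in hESCs, DE and PGT, at 16.5 in PP, 27.2 in PH and 2793 in SC-β, where it stood 13th among all names. The SC-β level was 169-fold that of PP and 102.6-fold that of PH, the next highest stage. GCG (ENSG00000115263.15) is at chr2:162142882-162152404 on the reverse strand, with 6 exons.

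Somatostatin, which restrains the release of many other hormones, was the highest islet hormone in PP and PH. SST was at 0.122 TPM in hESCs, 0 in DE and 0.599 in PGT, then 48.1 in PP, 65.8 in PH and 203 in SC-β. Its highest stage was only 3.09-fold above the next, against 43.0-fold for INS. SST (ENSG00000157005.4) is a gene of 2 exons at chr3:187668912-187670394 on the reverse strand.

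Pancreatic polypeptide, a regulator of exocrine secretion and appetite, was close to absent outside SC-β. PPY was at 0.0636 TPM in hESCs, 0 in DE and 0 in PGT, then 0.105 in PP, 0 in PH and 15.1 in SC-β. It lies at chr17:43940804-43942476 (ENSG00000108849.8, reverse strand, 4 exons), close to PYY on the same strand. The near copy PPY2 was not found in the table under that name.

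Ghrelin, the hormone of ε cells and of the stomach, was not highest in SC-β, unlike INS and GCG. GHRL was at 0.802 TPM in hESCs, 1.04 in DE and 2.25 in PGT, then 18.1 in PP, 15.7 in PH and 12.7 in SC-β, so its highest level was in PP, and PP, PH and SC-β differed by less than 2-fold. GHRL (ENSG00000157017.16, chr3:10285666-10292947, reverse strand, 6 exons) overlaps the antisense gene GHRLOS, which was at 2.00 TPM in PP, 1.93 in PH and 8.15 in SC-β. The sources used here do not settle whether reads were assigned by strand, so reads from GHRL and GHRLOS may not be told apart. MBOAT4, the enzyme that adds the acyl group that makes ghrelin active, was at 0.609 TPM in PP, 1.10 in PH and 1.50 in SC-β.

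Amylin (IAPP), which β cells release along with insulin, stayed low. IAPP was at 0.292 TPM in hESCs, 0.778 in DE and 0.532 in PGT, then 0.0723 in PP, 0.0573 in PH and 1.83 in SC-β. INS exceeded IAPP by 95.9-fold in PP, 119.6-fold in PH and 163-fold in SC-β. With IAPP so low these ratios depend on small values, and with a pseudocount of 1 TPM on both genes they were 7.40, 7.43 and 105.6. IAPP (ENSG00000121351.8, chr12:21354959-21379980, forward strand, 3 exons) lies within SLCO1A2 on the opposite strand, which was at 8.01, 13.1, 12.5, 2.92, 2.42 and 0.751 TPM in hESCs, DE, PGT, PP, PH and SC-β. SLCO1A2 was lowest in SC-β, where IAPP was highest. From hESCs to PH both genes had the same order of stages, highest in DE, then PGT, and lowest in PH. Strand assignment of reads is not settled, so reads from IAPP and SLCO1A2 may not be told apart, which was not tested.

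NPY and PYY, of the same peptide family, had different stage patterns. Neuropeptide Y, best known as a transmitter that stimulates feeding, was at 0.879 TPM in hESCs, 0.663 in DE and 290.02 in PGT, then 8.81 in PP, 4.64 in PH and 1.28 in SC-β. The PGT level was 32.9-fold above that of PP, the next highest stage, and made NPY 251st of all names. Peptide YY, a gut hormone that slows intestinal transit, was at 1.85 TPM in hESCs, 1.88 in DE and 0.0891 in PGT, then 1.50 in PP, 0 in PH and 4.20 in SC-β, so it was near its lowest where NPY was highest. NPY was 3254 times PYY in PGT and 5.87 times in PP, and the ratio was 0.305 in SC-β. With a pseudocount of 1 TPM on both genes these ratios were 267, 3.92 and 0.439, since PYY was close to 0 in PGT. NPY (ENSG00000122585.8) is at chr7:24284188-24291862 on the forward strand and PYY (ENSG00000131096.11) at chr17:43952733-44004469 on the reverse strand, with 4 exons each. PYY2, a near copy of PYY, was between 0.305 and 1.08 TPM, and how shared reads were split between them was not tested.

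The gastrin family also split. Gastrin, which drives gastric acid secretion and is made in the fetal pancreas, was listed at 0 TPM in hESCs, DE and PGT, at 9.57 in PP, 0.0220 in PH and 66.1 in SC-β. GAST was nearly absent in PH but not in PP and SC-β, an order that PYY shared at lower levels, and it was 6.90-fold higher in SC-β than in PP. Cholecystokinin, which empties the gallbladder, was at 0.595 TPM in hESCs, 0.121 in DE and 0 in PGT, then 0.0330 in PP, 0 in PH and 0.200 in SC-β. CCK was the single member under 1 TPM at every stage. GAST (ENSG00000184502.4) lies at chr17:41712331-41715969 on the forward strand and CCK (ENSG00000187094.12) at chr3:42257825-42266185 on the reverse strand.

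Ratios within a stage do not depend on the column total and describe the make-up of the hormone RNA. Of the summed TPM of the 10 genes, NPY made up 98.8% at PGT. For PP the share of SST was 43.9%, of GHRL 16.5%, of GCG 15.0%, of GAST 8.72%, of NPY 8.03% and of INS 6.32%. In PH the share of SST was 54.7% and that of GCG 22.6%, with GHRL at 13.1%, INS at 5.70% and NPY at 3.85%. In SC-β GCG alone took 82.2%, INS 8.78%, SST 5.99%, GAST 1.95%, PPY 0.443% and GHRL 0.375%. The share of INS thus lay between 5.70% and 8.78% in PP, PH and SC-β, while SST led in PP and PH and GCG in SC-β.

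**Figure D3:**
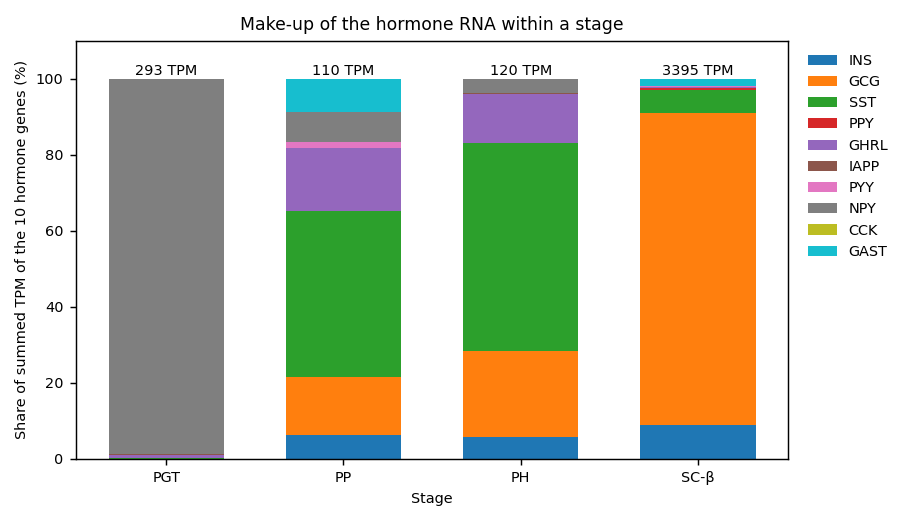
Stacked bars give the percent of the summed TPM of the 10 hormone genes that each gene made up in PGT, PP, PH and SC-β, with the summed TPM above each bar. NPY filled 98.8% of the PGT bar, SST led in PP (43.9%) and PH (54.7%), and GCG took 82.2% in SC-β.

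GCG exceeded INS by 2.38-fold in PP, 3.97-fold in PH and 9.37-fold in SC-β, so that SC-β was the stage with the largest excess of glucagon RNA. The paper also describes the cells of this stage as pancreatic islet organoids. SST exceeded INS 6.94-fold in PP and 9.60-fold in PH but stood at 0.682 of INS in SC-β. The ratio of SST to GCG was 2.92 in PP, 2.42 in PH and 0.0728 in SC-β. GHRL was 2.61 times INS in PP and 2.30 times in PH, and INS was 23.4 times GHRL in SC-β. GAST was 1.38 times INS in PP and 0.222 times in SC-β.

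Chromogranin A (CHGA), a granule protein of most endocrine cells, gave a second scale for these RNAs, chosen after the values were seen. GCG was at 0.0766 of CHGA in PP, 0.389 in PH and 3.47 in SC-β. The same ratio for INS was 0.0322, 0.0979 and 0.370, and it was higher in PH than in PP although the INS level was nearly level, since CHGA was at 215 TPM in PP and 70.0 in PH. For SST the ratio was 0.224 in PP, 0.939 in PH and 0.253 in SC-β, so on this scale PP and SC-β were close. GHRL went from 0.0842 in PP and 0.225 in PH to 0.0158 in SC-β.

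The label of the SC-β stage was set against genes of β cells, some of them named only after their values were seen. MAFA, a factor of mature β cells, was at 0.401 TPM there, PDX1, a factor of pancreatic progenitors and β cells, at 1.57, UCN3, a peptide of mature β cells, at 0.880, and IAPP at 1.83. NKX6-1, another β-cell factor, was at 5.37 TPM, and NEUROD1, which acts across endocrine cells, at 21.0. ABCC8, a subunit of the β-cell potassium channel, was at 38.3 TPM in SC-β and 4.27 in PP. INS itself was present, while MAFA and UCN3 were under 1 TPM and GCG exceeded INS. Bulk RNA means do not settle which cells were present, and SC-β is used below as the name of the stage. The paper also stained these organoids for C-peptide and glucagon protein. It counted C-peptide-positive, glucagon-negative cells by flow cytometry, which RNA levels do not measure.

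Comparisons between stages counted a gene as higher or lower from 2-fold on the TPM + 1 scale, on which a gene listed at 0 in the lower stage is counted once it reaches 1 TPM. From hESCs to DE, 0 of the 10 members were higher and 0 lower, where 12.9% of all names were higher and 2.55% lower. From DE to PGT 1 member, NPY, was higher (log2 ratio 7.45, background 2.30%) and 1, PYY, was lower (log2 ratio -1.40, background 4.92%). From PGT to PP 6 members, INS, GCG, SST, GHRL, PYY and GAST, were higher (background 2.74%) and 1, NPY, was lower (background 3.25%). The log2 ratio was 4.94 for SST, 2.56 for GHRL, 1.20 for PYY and -4.89 for NPY, and INS, GCG and GAST were listed at 0 in PGT. The median log2 ratio was 1.88 over the members and 0 over all names.

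PH has no stated day and is set beside PP only by the order of the columns. Against PP, 0 members were higher in PH (background 5.14%) and 2, PYY and GAST, were lower (background 5.73%). The log2 ratio was 0.69 for GCG, 0.44 for SST, -0.01 for INS, -0.19 for GHRL and -3.37 for GAST, with PYY listed at 0 in PH. The values of INS and GHRL were close enough to 0 to change sign under median-ratio rescaling (0.18 and 0.02) and without the structural and mitochondrial RNAs (0.18 and 0.01). The neuronal marker genes were higher in PH in 6 of 6 cases, with a median log2 ratio of 3.27, and their summed level was 1126 TPM in PH and 103 in PP. Mesenchymal markers were also higher in 6 of 6, at 878 TPM in PH and 149.5 in PP, beside 5.14% of all names. The part of these other cell types in the hormone levels of PH was not tested.

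The 3 comparisons with SC-β share the SC-β samples, so their values are given side by side and are not separate evidence. Against PP, 7 members, INS, GCG, SST, PPY, IAPP, PYY and GAST, were higher (background 10.6%) and 1, NPY, was lower (background 0.939%), with a median log2 ratio of 1.73 over the members and 0.16 over all names. Against PH the same 7 were higher (background 14.7%) and NPY was lower (background 2.41%), with medians of 2.00 and 0.20. Against hESCs 7 were higher, with GHRL in the place of PYY (background 22.2%), and 0 were lower (background 3.70%), with medians of 3.42 and 0.23. The log2 ratio to PP was 7.32 for GCG, 5.24 for INS, 3.86 for PPY, 2.67 for GAST, 2.06 for SST, 1.40 for IAPP, 1.06 for PYY, 0.22 for CCK, -0.48 for GHRL and -2.10 for NPY. GCG and INS had the largest values, and GHRL and NPY were the members below 0. The call of PYY against PP and that of IAPP against hESCs (log2 ratio 1.13) were near the threshold, and rescaling the columns by their median ratio took them to 0.84 and 0.91.

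**Figure D4:**
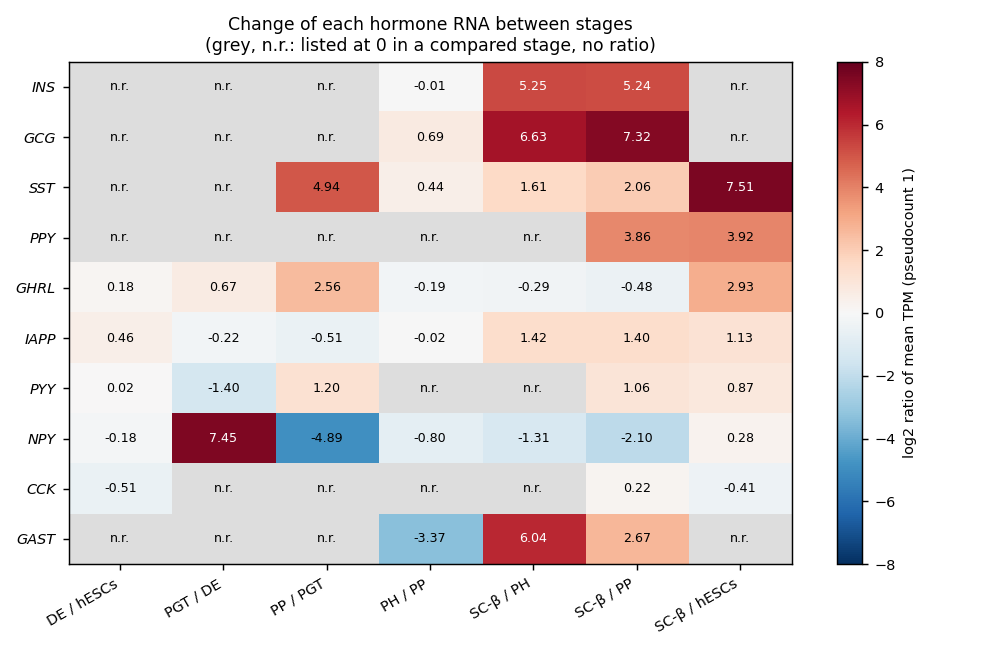
Rows are the 10 hormone genes, columns the 7 stage comparisons, and colour and number give the log2 ratio of mean TPM + 1, with grey where a gene was listed at 0 in a compared stage. GCG (7.32) and INS (5.24) had the largest ratios of SC-β to PP, and NPY changed from 7.45 in PGT against DE to -4.89 in PP against PGT.

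Some marker lists of other cells differed between PP and SC-β along with the hormones, in a comparison where 10.6% of all names were higher and 0.939% lower. Enterochromaffin-type markers, genes of serotonin-making endocrine cells, were higher in 5 of 6 cases with a median log2 ratio of 2.097, and summed to 7.70 TPM in PP, 7.56 in PH and 75.9 in SC-β, where LMX1A was at 32.2 TPM and TPH1, which makes serotonin, at 14.2. Mesenchymal markers were higher in 6 of 6 and summed to 1484 TPM in SC-β. Hepatic markers summed to 474 TPM in PGT, where NPY was highest, and to 47.9 in DE, with 5 of 5 higher in PGT (background 2.30%), and intestinal markers to 129.7 and 24.9 TPM. The intestinal sums were mostly 1 gene, VIL1, at 125.3 TPM in PGT, 24.6 in DE and 28.8 in PP. From PP to SC-β 1 of 5 hepatic markers and 2 of 4 intestinal markers were higher and 0 lower, with sums of 109 and 225 TPM for the hepatic list and 30.9 and 41.3 TPM for the intestinal list. Of 5 exocrine markers 1 was higher and 1 lower (16.8 TPM in PP, 23.8 in SC-β, median log2 ratio -0.35), and of 4 ductal markers 1 was higher and 0 lower (270.2 and 364 TPM). The part of these cells in the hormone levels was not tested.

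The genes that cut, amidate and store the hormones were followed as a list of 13. From PGT to PP 7 of 13 were higher (PCSK2, PCSK1N, CPE, PAM, CHGA, CHGB and SCG2) and 1, SCG3, was lower, with a median log2 ratio of 1.70, where 2.74% of all names were higher and 3.25% lower. From PP to SC-β 8 of 13 were higher and 0 lower (median 1.29), beside 10.6% and 0.939% of all names. PCSK1, the convertase that releases insulin and GLP-1, was at 0.610 TPM in PP, 1.85 in PH and 8.52 in SC-β, and PCSK2, which releases glucagon, at 2.71, 4.23 and 11.4. The carboxypeptidase CPE, which trims the cut peptides, was at 147, 81.0 and 108 TPM, and PAM, which amidates peptides such as those of PPY, NPY and GAST, at 82.3, 62.3 and 78.3. CPE was also at 224 TPM in DE, where 5 of the 10 hormones were listed at 0. CHGA reached 805 TPM in SC-β, above INS and below GCG, and SCG2 60.4.

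Receptors for these hormones were followed as a list of 20. From PP to SC-β 5 were higher, SSTR1, SSTR2, NPY1R, NPY5R and CCKAR, and 1, CCKBR, was lower, beside 10.6% and 0.939% of all names, and the median log2 ratio was 0.21 beside 0.16 for all names. The insulin receptor INSR varied little, at 16.7 TPM in hESCs, 18.0 in DE and 19.9 in PGT, then 14.2 in PP, 23.6 in PH and 22.4 in SC-β. NPY1R, a receptor of NPY and PYY, was at 5.22, 14.4, 5.80, 7.42, 3.03 and 127 TPM in the same order, highest in SC-β where NPY was at 1.28 TPM, and lower in PGT where NPY was at its highest. CCKBR, which binds gastrin and CCK, was at 4.00, 99.7, 17.4, 5.28, 0.149 and 0.591 TPM, so it was highest in DE, where GAST was listed at 0. CCKAR, which prefers CCK, was at 2.47 TPM in PH and 5.37 in SC-β. The glucagon receptor GCGR was highest in PGT at 5.41 TPM and was at 0.562 in SC-β, where GCG was highest. GLP1R was at 0.976 TPM in PP and 2.07 in SC-β, the ghrelin receptor GHSR never exceeded 0.103 TPM, and NPY4R, which binds pancreatic polypeptide, never exceeded 0.00876 TPM. Its near copy NPY4R2 was not found under that name, and how reads shared by these copies were treated was not tested.

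**Figure D5:**
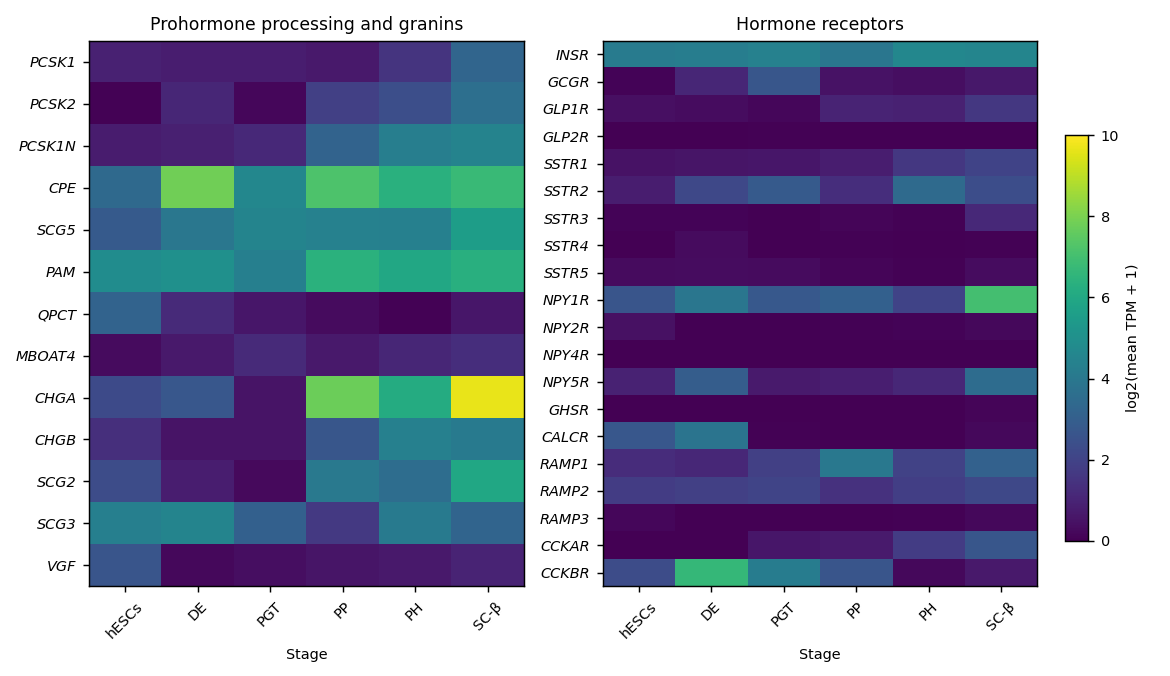
Rows are the 13 genes of hormone processing and granules (left) and the 20 hormone receptors (right), columns the 6 stages, and colour gives log2(mean TPM + 1). CHGA in SC-β (805 TPM) is the brightest cell at left, and at right NPY1R stands out in SC-β (127 TPM) and CCKBR in DE (99.7 TPM).

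Names with a pattern like that of INS, GCG and SST over the 6 stages were sought among 12842 names at 10 TPM or more in some stage, by Euclidean distance of log2(TPM + 1). All hormone members were left out of these candidates, so no hormone could be named as near another. For INS the nearest were S100A9 (distance 2.37), NPR3 (2.68), TWIST1 (2.77), PYGM (2.81) and PTX3 (2.82). For GCG they were POSTN (3.70), PRRX1 (3.84), COL3A1 (4.19), AC066694.1 (4.25) and KRT4 (4.77), and for SST they were ZEB2 (1.19), SPINK1 (1.30), PRRX1 (1.57), HOXA-AS2 (1.81) and PAX3 (1.96). TWIST1 and COL3A1 are also in the mesenchymal list. The order rests on 6 stage means, and with Pearson correlation as the measure 0 of the 5 names were shared for each of the 3 hormones. By that measure ABCC8, a subunit of the β-cell potassium channel, came first for INS (r = 0.998) and TRIM29 first for GCG (r = 0.9996), with ABCC8 next, and CDO1 came first for SST (r = 0.997), each over 6 stage means.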

How the data were processed

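The authors mapped reads with HISAT2 2.2.0 (build hg38), quantified genes as TPM with StringTie 2.1.6, and deposited 1 mean column for the 2 replicates of a stage. The annotation is not given in the sources used here, and the labels and the methods name different library kits, so strandedness is not settled. The table has 50451 entries under 49085 names, and 231 names with more than 1 entry were summed. The table gives no read counts, and the study states only a minimum sequencing depth for its replicates.

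Log2 ratios used TPM plus a pseudocount of 1, with 2-fold as the threshold over 7 comparisons and no fold for a gene listed at 0. Medians cover every name. Genes named were all members, for each list the most abundant genes and those in counts of 5 or fewer, and the 5 nearest names of INS, GCG and SST outside the members. Other genes named, and the CHGA ratios, were chosen after their values were seen. The members and lists were chosen with earlier results of these data known. Alternatives were a pseudocount of 0.1, a 4-fold threshold, 2 rescalings, the highest entry of a name, and names at 1 TPM or more. Gene positions came from GENCODE 44 and promoter windows from RefSeq. Python 3.11.15, pandas 2.3.3 and numpy 2.4.6 were used, and the scripts were tested on simulated data. All other assays were not used here. Some genes of the islet factor list are not reported here.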

Additional observations from a re-analysis of the deposited data

How the results depend on the processing

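No log2 ratio past the threshold changed sign under these alternatives. Of the log2 ratios 372 of 396 kept their side of the threshold, and 75 of 84 counts of members stayed the same or within 1.5 times. Part of these could not move. Each of the 10 members has a single entry, so the highest entry of a name gave the main values again (70 ratios and 14 counts). Keeping names at 1 TPM or more also left every ratio and count as it was (46 ratios and 14 counts). The 4-fold threshold used the main ratios again, so only ratios called at 2-fold could change side. Members listed at 0 in both compared stages had a ratio of 0 under every alternative. They were INS, GCG and GAST in DE against hESCs and in PGT against DE, and PPY in PGT against DE. With a pseudocount of 0.1 in place of 1, the count of members higher was 1 in place of 0 in DE against hESCs and 3 in place of 1 in PGT against DE, and the count lower was 2 in place of 0 in DE against hESCs, 2 in place of 1 in both PGT against DE and PP against PGT, and, for SC-β against hESCs, 1 where it had been 0. With a 4-fold threshold the count lower was 0 in place of 1 in PGT against DE, 1 in place of 2 in PH against PP, and again 0 in place of 1 in SC-β against PH. Pearson correlation kept 0 of the 5 nearest names for INS, 0 for GCG and 0 for SST. The cause of these moves was not tested, beyond that a smaller pseudocount gives more weight to values under 1 TPM. Without a pseudocount, median-ratio rescaling shifts log2 ratios by -0.48 in DE against hESCs, 0.15 in PGT against DE, 0.22 in PH against PP, -0.50 in SC-β against PH, -0.27 in SC-β against PP and -0.52 in SC-β against hESCs. Below the threshold it changed the sign of GHRL (-0.05) and PYY (-0.30) in DE against hESCs and of INS (0.18) and GHRL (0.02) in PH against PP. Leaving out the structural and mitochondrial RNAs, again without a pseudocount, shifts log2 ratios by -0.16, 0.21, -0.40, -0.18 and -0.12 in these comparisons other than PGT against DE, and by 0.14 in PP against PGT. It changed the sign of PYY (-0.10) in DE against hESCs and of INS (0.18) and GHRL (0.01) in PH against PP. The reported ratios moved by other amounts, because the pseudocount of 1 was added after rescaling. For SC-β against hESCs, GCG went from 11.45 to 11.20 under median-ratio rescaling and to 12.1 without these RNAs. No paired analysis was possible because each deposited column is the mean of both replicates, and for the same reason no replicate could be left out.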

Other observations

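Peptide genes outside the 10 hormones had other stage patterns. Of 26 related peptide genes, 25 were in the table. Neurotensin (NTS), a gut and brain peptide, was at 226 TPM in hESCs, 2.08 in DE and 0.634 in PGT, then 5.58 in PP, 4.80 in PH and 59.5 in SC-β, so it was high at both ends of the protocol. Galanin (GAL), a neuropeptide, was at 165 TPM in hESCs, 33.1 in DE and 0.397 to 1.76 in the other stages. Insulin-like growth factor 2 (IGF2), the neighbour of INS, was at 0.206 TPM in hESCs, 0.630 in DE and 2.73 in PGT, then 21.2 in PP, 5.17 in PH and 28.6 in SC-β, and like GAST it was lower in PH than in PP and SC-β.

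ADCYAP1, which encodes the neuropeptide PACAP, was at 13.1 TPM in PH, the stage where the neuronal markers summed to their highest level, and under 1 TPM at the other stages. TAC1, the precursor of substance P, was at 3.90 TPM in hESCs, 5.29 in PH and 11.8 in SC-β. From PP to SC-β 4 related peptide genes were higher (IGF1, ADM, NTS and TAC1) and 1, RLN2, was lower, of 25 in the table and beside 10.6% and 0.939% of all names. The incretin GIP never exceeded 1.06 TPM and VIP never exceeded 0.0957 TPM. These are values of the authors' means with no replicate error.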
